A study of Homo sapiens with 9 samples.

Results

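The RNAs described here were the messenger RNAs of the cytosolic ribosomal proteins, measured by Chrom-seq in HEK293T cells. Members were the protein-coding genes on chromosomes 1 to 22 and X with a symbol that starts with RPL or RPS and a number, plus RPLP0, RPLP1, RPLP2 and RPSA, without the RPS6 kinases. The rule used names only and found 85 of the 57820 genes in the count table. By their symbols, 33 belong to the small subunit, 49 to the large subunit and 3 to the stalk. RPL7L1, known as an assembly factor, is counted with the large subunit. FAU, which encodes a ribosomal protein fused to a ubiquitin-like part, has another name and is given beside the members. HEK293T is an established human embryonic kidney cell line. Cells were transiently transfected with a plasmid in which the chicken β-actin promoter drives the peroxidase APEX2 fused to an antibody fragment, and with a second plasmid for a chain of the SunTag epitopes that this fragment binds. In the CBX1 group the chain carried the CBX1 chromodomain as reader. CBX1 is a protein of heterochromatin, and this domain binds the histone mark H3K9me3. In the CBX1_W42A group the domain had the amino acid change W42A, and in the Control group the chain had no reader. The count columns of all 3 groups carry the label NLS, a common short form of nuclear localization signal. The methods text of the study does not mention it. All 3 groups were labelled 48 h after transfection, with 500 µM biotin-aniline (30 min) and 1 mM hydrogen peroxide (1 min). RNA that carried biotin was bound to streptavidin, and its polyadenylated part was sequenced in 3 libraries per group.

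Ribosomal proteins assemble with ribosomal RNA in the nucleolus into the small subunit, which reads the messenger RNA, and the large subunit, which joins amino acids. Their messenger RNAs are among the most abundant in growing cells, are short, and are mostly found in the cytoplasm. Many of them begin with a cytosine and a run of pyrimidines, the 5′ terminal oligopyrimidine (TOP) tract, through which growth signalling controls their translation. Introns of many of their genes hold small nucleolar RNAs.

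The tract marks the members as a class, and it was read from the GRCh37 genome at the start of the reference transcript of each gene. Of 84 members with a start in the annotation, 59 (70.2%) began with C and at least 4 further pyrimidines, against 899 of 19296 protein-coding genes (4.66%). The median tract of these 59 members had 8 bases. A run of pyrimidines that begins a few bases from the annotated start was not counted as a tract. Below, 15 bases before the start and 15 from the start are given for members called different between groups, among them RPL7L1 and RPL23, which have no tract of that length at their annotated start, and for RPS2 and RPL13A, whose levels varied little. Capitals mark the tract. RPL23, which was called, has a tract of 1 base by the same reading and is printed without capitals. The plus or minus strand is that of the gene, and each window lies across the first base of exon 1, from the promoter into the transcript. The last bases of the RPL23 window hold an ATG, so that window may run into coding sequence.
RPL31 (chr2:101618736-101618765, plus strand): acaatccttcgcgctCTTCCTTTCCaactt
RPS25 (chr11:118889039-118889068, minus strand): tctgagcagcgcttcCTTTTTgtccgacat
RPL37 (chr5:40835310-40835339, minus strand): tagcggaagtgccttCTCTTCCggtctttc
RPS23 (chr5:81574159-81574188, minus strand): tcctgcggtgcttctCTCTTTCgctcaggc
RPL35A (chr3:197677046-197677075, plus strand): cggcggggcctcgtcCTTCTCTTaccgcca
RPL23 (chr17:37009960-37009989, minus strand): cttttttcttttttccggcgttcaagatgt
RPL37A (chr2:217363552-217363581, plus strand): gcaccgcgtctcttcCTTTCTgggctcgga
RPS27 (chr1:153963223-153963252, plus strand): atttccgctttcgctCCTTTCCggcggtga
RPS29 (chr14:50053084-50053113, minus strand): tgcgtgggccagcttCTTCCTTTTacctcg
RPS2 (chr16:2014813-2014842, minus strand): ccagtaggtctcgttCTTCTTTTCCgacaa
RPL13A (chr19:49990850-49990879, plus strand): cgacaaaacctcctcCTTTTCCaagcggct
RPL7L1 (chr6:42847339-42847368, plus strand): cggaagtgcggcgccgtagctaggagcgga
RPS2, with 10 bases, and RPL31, with 10 bases, had tracts of the same length and lay at opposite ends of the variation between libraries described below. The members lie on 21 chromosomes, 12 of them on chromosome 19.

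The 9 libraries held between 8379542 and 11082852 counts. CPM below is the count per 1000000 counts of a library after scaling by TMM factors, which lay between 0.942 and 1.0374. Of the HEK293T markers, NEFM lay between 204 and 345 CPM and PAX2 between 4.07 and 10.6 CPM. NEFL lay between 93.5 and 125 CPM and EYA1 between 9.86 and 14.3 CPM. SALL2 had a mean of 70.52 CPM in CBX1 and 99.93 CPM in Control (log2 fold change -0.48, adjusted p = 0.00464 by edgeR's quasi-likelihood test). LHX1 had a mean of 17.88 CPM in CBX1_W42A and 10.93 CPM in Control (log2 fold change 0.7, adjusted p = 0.038 by edgeR). No other difference between groups passed for these markers. CD3E, HBG1 and KRT5 of other cell types had 0 counts, and PTPRC lay between 0 and 0.193 CPM. ALB and DES, of liver and muscle, had counts in every library, between 0.388 and 2.78 CPM and between 0.366 and 1.21 CPM, and ALB had a log2 fold change of 1.35 in CBX1 against Control that did not pass (adjusted p = 0.068 by edgeR's quasi-likelihood test). In these bulk RNA samples, fewer cells of a kind and less RNA per cell cannot be told apart. Members almost wholly inside a longer readthrough gene of the same strand had few counts, and how shared reads were counted is not given in the sources used here. RPS10 had 15 counts over the 9 libraries and RPL36A had 16, with 0.89% and 3.53% of their spans outside other genes of the strand. RPL26, with 0.46% of its span free, had 0 counts in all 9 libraries, and so had RPL10L, a testis paralog of RPL10. These 4 members were not tested, which left 81 in each comparison. A count of 0 for RPL26 is not a measure of its RNA. RPL17, with 21.79% of its span free, was tested, and its level may lack shared reads.

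Ribosomal protein RNAs were abundant in every group. Of the 85 members, 67 had a mean above 100 CPM over the 9 libraries and 9 above 1000 CPM. The highest CPM belonged to RPL4, RPL19, RPL3, RPL13A and RPL23A. RPL4, a large subunit protein that lines the exit tunnel, had 1816, 2497 and 2091 CPM in the Control libraries, 2184, 1815 and 2015 CPM in the CBX1 libraries and 2319, 1706 and 1600 CPM in the CBX1_W42A libraries. The 3 groups overlapped. RPL19 had 1786, 1863 and 1911 CPM in Control, 1598, 1648 and 1810 CPM in CBX1 and 2245, 1726 and 2077 CPM in CBX1_W42A, and the groups overlapped here too. Levels of different genes can be set side by side only per length, and the coding length, from 75 to 1281 bases with a median of 454.5, was used. By CPM per kb of coding sequence, RPL41, which encodes the smallest ribosomal protein, had 3296, followed by RPL19 with 3149, RPL23A with 3085, RPL13A with 2379 and RPL35 with 2347. The first 3 places changed with the group, since RPL19 led in Control and CBX1_W42A (3152 and 3428) and RPL23A in CBX1 (3703). These 3 are not separated beyond the spread of their libraries, since RPL23A alone ran from 687.8 to 2002 CPM. The place of RPL41 rests on the choice of length, because reads of the untranslated parts are divided by a coding sequence of 75 bases. Per kb of its reference transcript of 676 bases it had 365.7 CPM and came 34th, and RPL19, with 2512 CPM per kb of 737 bases, came first. The median member had 623 CPM per coding kb. At the lower end stood the paralogs RPL39L with 66.7, RPS27L with 45.2, RPL22L1 with 17.2 and RPL3L, a paralog known from muscle, with 1.32. Pseudogenes can take reads from their parent genes. The 812 named pseudogene copies of 75 members held 55469 counts, against 3273230 in the members, and 34139 of these lay in copies of RPS2.

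**Figure D1:**
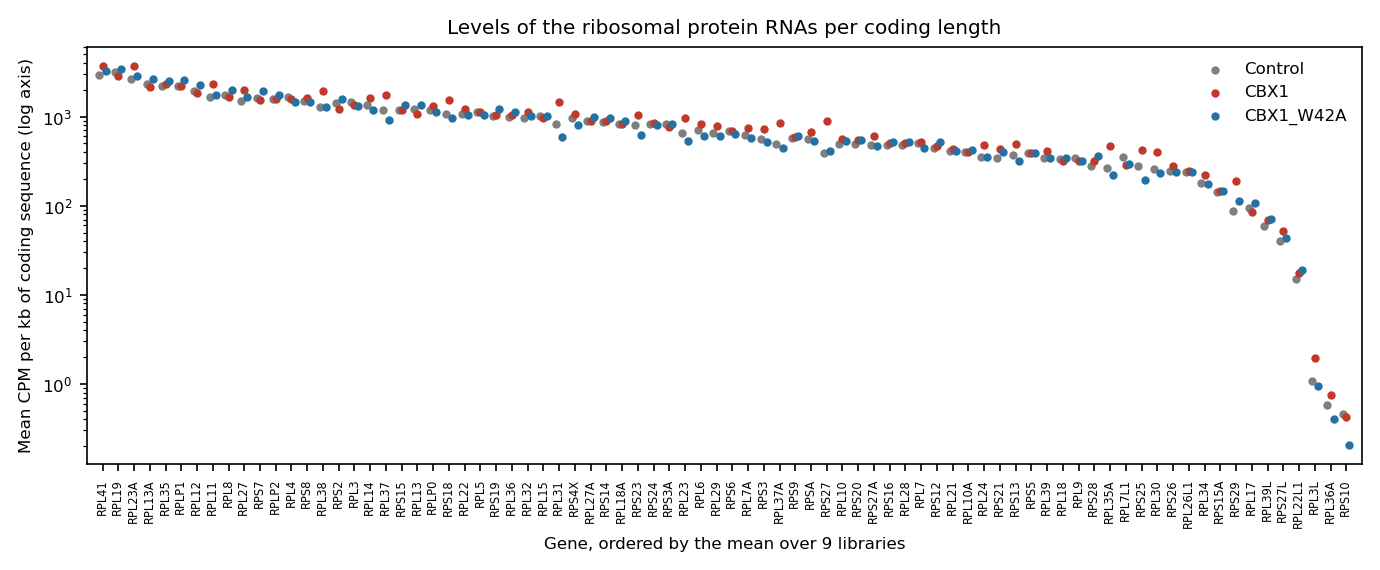
Mean CPM per kb of coding sequence (log axis) of 80 of the 82 members with a coding length and at least 1 count, ordered by the mean over the 9 libraries, with 1 point per group of 3 libraries. The levels fall slowly from 3296 for RPL41 and then steeply over the last members, which are paralogs and genes whose reads overlap a readthrough gene.

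Together the members took 2.984%, 4.135% and 3.536% of the counts in the Control libraries, 4.599%, 3.51% and 4.319% in the CBX1 libraries, and 4.411%, 3.216% and 3.647% in the CBX1_W42A libraries. The 3 groups overlapped, and the lowest CBX1 library lay below the Control library with the highest share. The group means were 3.552% ± 0.576 in Control, 4.143% ± 0.566 in CBX1 and 3.758% ± 0.605 in CBX1_W42A (SD, n = 3), so the largest difference between group means was about as large as the SD within a group. The mitochondrial ribosomal proteins, which are made in the cytosol for a different ribosome, took between 0.4973% and 0.5871% of the counts in Control, between 0.5108% and 0.5587% in CBX1 and between 0.493% and 0.5734% in CBX1_W42A. Transcripts of the mitochondrial genome took 3.371% ± 0.18 in Control, 4.504% ± 0.175 in CBX1 and 4.307% ± 0.0947 in CBX1_W42A (SD, n = 3), and here each library of the reader groups lay above each Control library. With these transcripts left out of the totals, the members took between 3.082% and 4.283% in Control and between 3.673% and 4.826% in CBX1, and still overlapped.

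**Figure D2:**
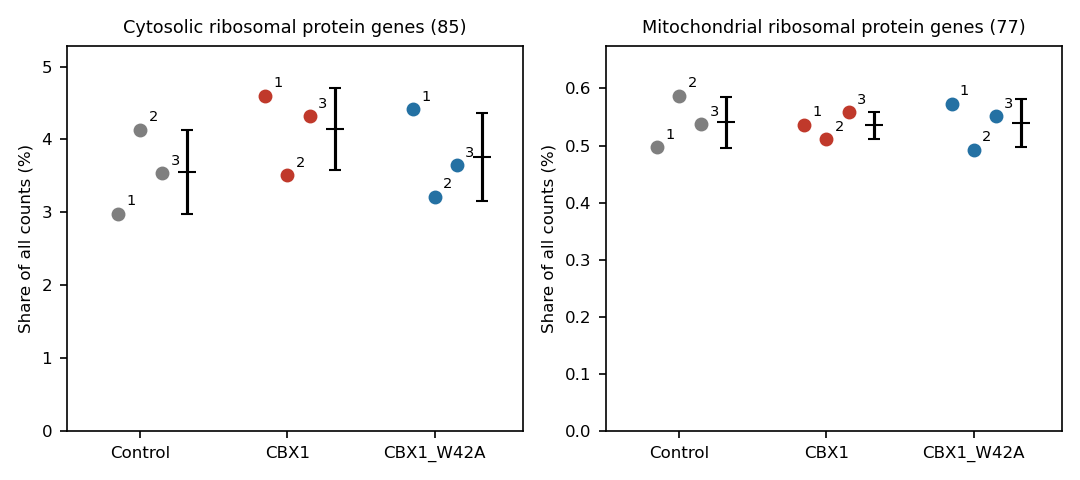
Share of all counts (%) in the 85 cytosolic and the 77 mitochondrial ribosomal protein genes, with 1 point per library, the replicate number beside it, and the group mean with its SD (n = 3) at the right of each group. The share in the cytosolic genes runs from 2.984% in Control replicate 1 to 4.599% in CBX1 replicate 1, and each group spans much of that range.

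The members varied together between replicates of a group. Over the 75 members with a mean of at least 20 CPM, the median SD within groups was 0.264 on the log2 scale, against 0.133 for 8389 other protein-coding genes of that level and 0.175 for the 428 of these with a coding length of up to 450 bases. The first principal component of these members took 80.4% of their variance over the 9 libraries, and 66 of the 75 had a positive weight. This variance includes differences between groups as well as between replicates. Its scores were -4.13, 3.04 and -1.4 in the Control libraries, 4.85, -1.08 and 2.58 in the CBX1 libraries, and 1.38, -2.89 and -2.34 in the CBX1_W42A libraries. High and low scores thus occurred in each group, and the Control library with the highest score lay above 2 of the 3 CBX1 libraries. Of the 75 members, 31 were highest in CBX1 replicate 1, 30 in CBX1_W42A replicate 1 and 10 in Control replicate 2, while 32 were lowest in Control replicate 1.

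RPL31, a large subunit protein near the exit of the tunnel, had the largest weight, with 160.1, 552.1 and 214.0 CPM in Control, 938.4, 218.3 and 494.0 CPM in CBX1, and 266.8, 200.3 and 191.6 CPM in CBX1_W42A. Its highest library was 5.86 times its lowest. RPL35A, also of the large subunit, ranged 5.39-fold. At the other end, RPL13, RPS2, RPL13A, RPL19 and RPLP2 had weights just below 0 and ranged between 1.38-fold and 1.56-fold over all libraries. RPL13A had 1415, 1383 and 1431 CPM in Control, 1205, 1318 and 1440 CPM in CBX1 and 1833, 1368 and 1645 CPM in CBX1_W42A. RPL31 and RPL13A are both large subunit genes with a tract, and the range of RPL13A over the libraries was 1.52-fold. Members with a larger weight had, as a description across 75 genes that share the same libraries, lower GC content (Spearman's rho = -0.43) and shorter coding sequences (rho = -0.31). The number of members that differed at least 2-fold between replicates was 20 in Control, 13 in CBX1 and 6 in CBX1_W42A.

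Other mRNAs are set beside the members in single libraries. For the 9 members with a coding length of up to 300 bases, the median log2 deviation from the gene's own mean was -0.57 in Control replicate 1 and 0.66 in CBX1 replicate 1, against -0.15 and 0.02 for 135 other protein-coding genes of that length. For the mitochondrial ribosomal proteins these medians were -0.04 and -0.05, for the initiation factors 0.12 and -0.11. In Control replicate 2 some other lists were as high as the 75 members, whose median was 0.23. It was 0.23 for the mitochondrial ribosomal proteins, 0.23 for the initiation factors and 0.25 for the ribosome biogenesis genes. The elongation factors had 0.15, the other TOP mRNAs 0.18 and all 8464 protein-coding genes of that level 0.1. In CBX1_W42A replicate 1 the members had 0.26. There the mitochondrial ribosomal proteins had 0.1, the elongation factors 0.09, the initiation factors 0.05, the other TOP mRNAs 0.11 and the ribosome biogenesis genes -0.01. The part of RNA length, GC content or library preparation in this pattern was not tested.

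**Figure D3:**
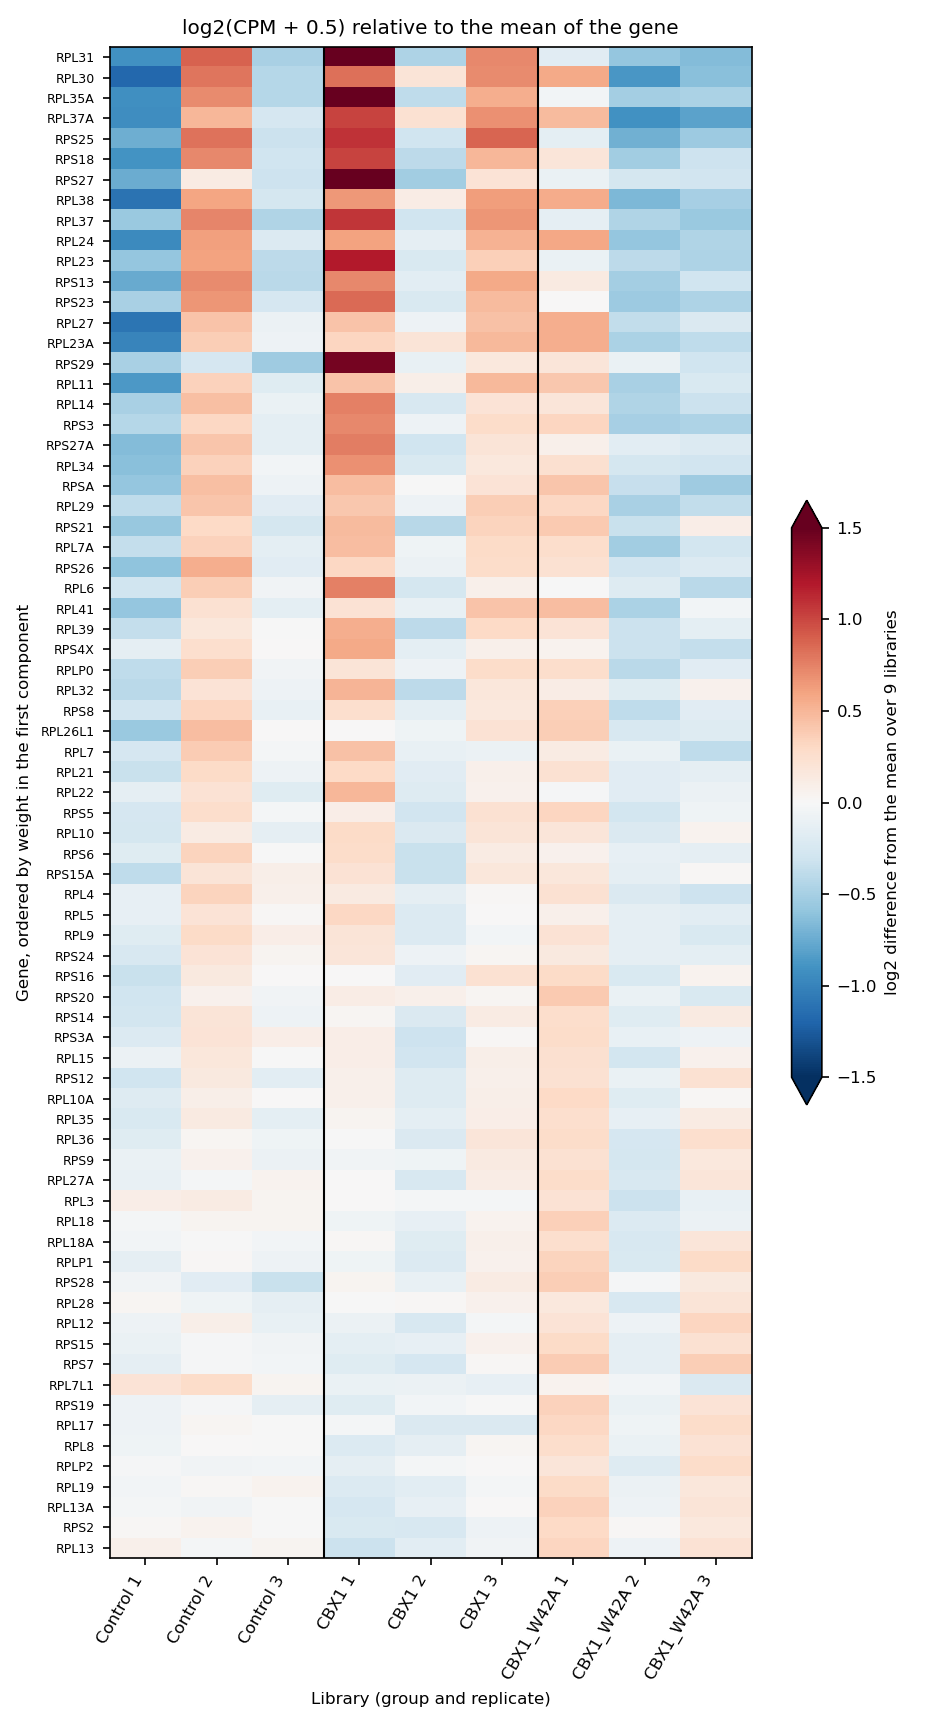
Difference of log2(CPM + 0.5) from the mean of the gene over the 9 libraries, for 74 of the 75 members with a mean of at least 20 CPM (rows, ordered by weight in the first component) in each library (columns; black lines separate the groups). In the upper rows Control replicate 2, CBX1 replicates 1 and 3 are high and Control replicate 1, CBX1_W42A replicates 2 and 3 are low, whatever their group, while the lowest rows are nearly flat.

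The comparison of CBX1 with Control asks which RNAs were labelled more when the peroxidase was recruited by the H3K9me3 reader. Of the 81 members tested, RPS29, RPL37A and RPS27 were higher with CBX1 and RPL7L1 was lower by edgeR's quasi-likelihood test at a Benjamini-Hochberg adjusted p below 0.05. That is 3.7% of the members higher and 1.23% lower, against 10.6% and 9.46% (20.1% in either direction) of the 18837 genes tested. With a log2 change of 0.75 or more asked for as well, edgeR had 3 members higher (7.06% of all genes) and 0 lower (0.34%), and DESeq2 had 0 and 0. The study used DESeq2 with the same thresholds. Without the fold threshold, 1 member was lower by DESeq2 and 1 had an unadjusted edgeR p below 0.05 in that direction. In either direction 16 members had an unadjusted edgeR p below 0.05 (34.2% of all genes). As a median over the members, the log2 fold change was 0.183, against 0.027 over all genes tested, and 66 of the 81 were positive.

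RPS29, a zinc-binding protein of the small subunit, had 14.07, 16.63 and 13.52 CPM in Control and 54.67, 18.27 and 22.24 CPM in CBX1. Its CBX1 libraries all lay above its Control libraries, the only member of the 81 with that order (17.9% of all genes), and replicate 1 stood far above the other CBX1 libraries. The log2 fold change was 1.12 ± 0.29 (SE, n = 3 per group; adjusted p = 0.0117 by edgeR's quasi-likelihood test, 0.106 by DESeq2), and without CBX1 replicate 1 it was 0.48 (adjusted p = 0.0597 by edgeR). RPL37A, a zinc finger protein of the large subunit, had 76.75, 209.2 and 123.3 CPM in Control and 298.6, 172.8 and 237.8 CPM in CBX1. The groups overlapped, since Control replicate 2 exceeded CBX1 replicate 2, and the log2 fold change was 0.82 ± 0.24 (SE, n = 3; adjusted p = 0.0255 by edgeR, 0.224 by DESeq2). It was 0.52 (adjusted p = 0.0726 by edgeR) without Control replicate 1 and 1.25 (adjusted p = 9.76e-05) without Control replicate 2.

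RPS27, another zinc finger protein of the small subunit, had 71.51, 130.7 and 96.72 CPM in Control and 446.5, 83.29 and 138.2 CPM in CBX1. CBX1 replicate 1 stood more than 3-fold above every other library, and CBX1 replicate 2 lay below 2 of the Control libraries. The log2 fold change was 1.18 ± 0.39 (SE, n = 3; adjusted p = 0.0400 by edgeR, 0.28 by DESeq2), and it was 0.18 (adjusted p = 0.606 by edgeR) without CBX1 replicate 1. RPL7L1, a paralog of RPL7 known as a nucleolar factor of large subunit assembly, had 274.8, 288.0 and 246.0 CPM in Control and 223.2, 223.4 and 218.6 CPM in CBX1. Each CBX1 library lay below each Control library, and the log2 fold change was -0.26 ± 0.09 (SE, n = 3; adjusted p = 0.0484 by edgeR, 0.0272 by DESeq2). RPS2, RPL13 and RPL3 also had all CBX1 libraries below all Control libraries, so that 4 of 81 members did (19.9% of all genes), with log2 fold changes of -0.18, -0.18 and -0.08 that did not pass the test. RPS2, at the mRNA entry of the small subunit, had between 1217 and 1267 CPM in Control and between 1036 and 1156 CPM in CBX1.

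The count of higher members rested on single libraries. Without CBX1 replicate 1, 0 members were higher by edgeR, and without Control replicate 2, in which many members were high, 30 were, the 3 above among them. DESeq2 called 0 members higher, with 1 at an unadjusted p below 0.05, where edgeR had 15. Without CBX1 replicate 2 edgeR called 12 members higher, and without Control replicate 1 or 3 it called 1. How many of all genes these fits called is not given here, so their counts have no background beside them. RPL7L1 stayed under an adjusted p of 0.05 without Control replicate 3 and missed it in each of the other 5 fits that left out a library.

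**Figure D4:**
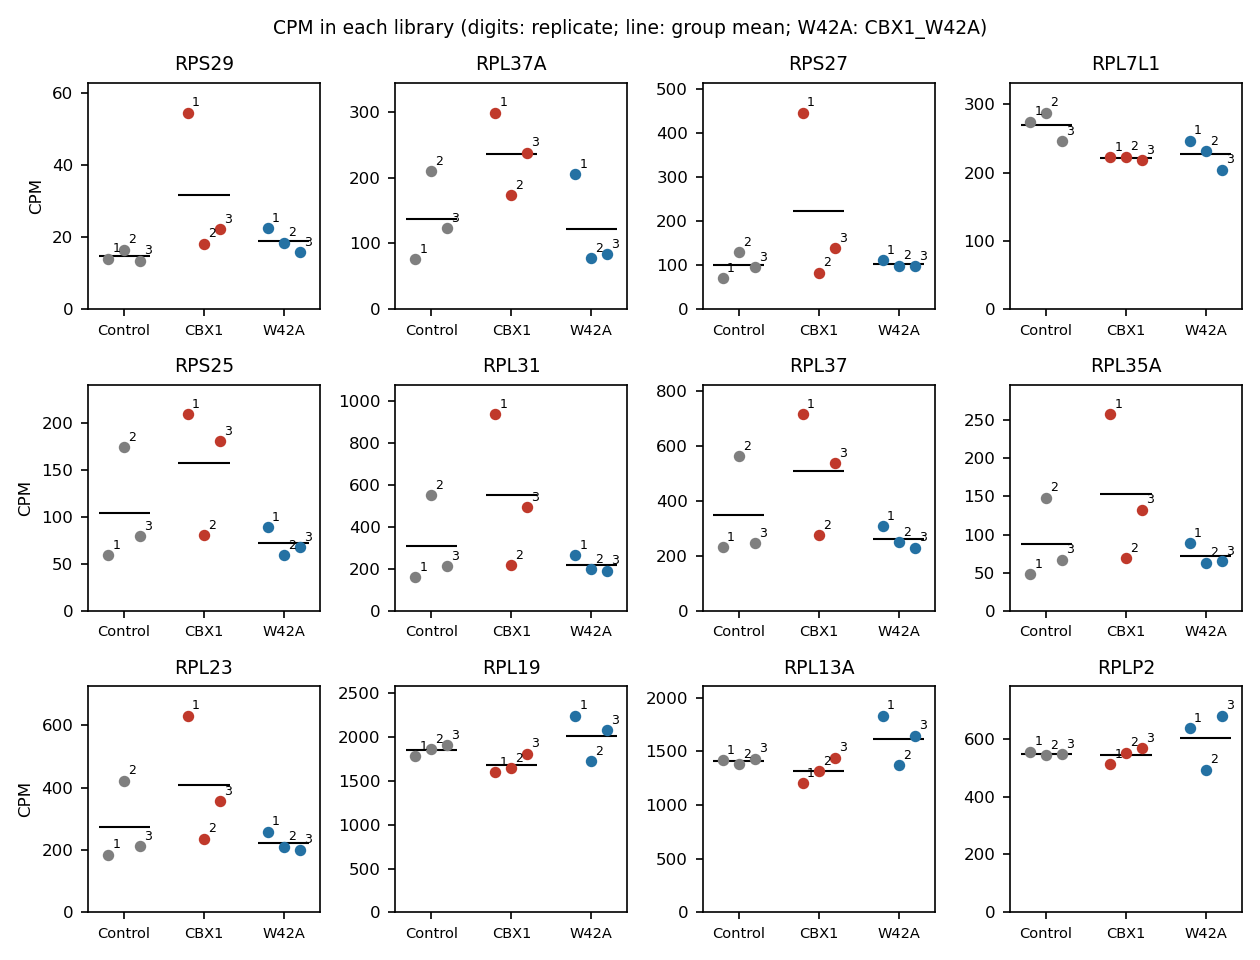
CPM in each library (points, with the replicate number) and group mean (line) for 9 members called in at least 1 comparison, and for RPL19, RPL13A and RPLP2, which varied little; each panel has its own axis from 0. In RPS29 and RPS27 the CBX1 mean is set by replicate 1 (54.67 and 446.5 CPM), and in RPS25, RPL31, RPL37, RPL35A and RPL23 Control replicate 2 lies beside the higher CBX1 libraries.

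With the W42A change in the reader, 0 of the 81 members were higher and 0 were lower than in Control by edgeR (1.37% and 1.25% of the 18680 genes tested, 2.62% together) and by DESeq2. At an unadjusted p below 0.05 there were 7 by edgeR (19.3% of all genes) and 4 by DESeq2. With the fold threshold edgeR called 0.974% of all genes higher in this comparison and 0.0214% lower. The median log2 fold change of the members was -0.001, against 0.012 over all genes, and 40 of 81 were positive. The smallest p belonged to RPS28, a short protein of the small subunit, which had 63.17, 58.14 and 51.92 CPM in Control and 84.95, 64.73 and 72.79 CPM in CBX1_W42A. Its libraries did not overlap (12.4% of all genes lay so), and the log2 fold change of 0.35 ± 0.12 (SE, n = 3; adjusted p = 0.116 by edgeR's quasi-likelihood test) did not pass. RPL7L1, with 246.8, 231.9 and 204.5 CPM in CBX1_W42A, came next at -0.25 ± 0.11 (SE, n = 3; adjusted p = 0.200 by edgeR). Its CBX1_W42A replicate 1 lay within the range of Control. Without CBX1_W42A replicate 2, 1 member, RPS7, was higher.

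The comparison of CBX1 with CBX1_W42A asks what depends on the tryptophan of the chromodomain. The CBX1_W42A samples have registration numbers apart from those of Control and CBX1. The labels do not say whether all groups were prepared together. A difference in preparation could thus not be told apart from the W42A change, here or against Control. By edgeR's quasi-likelihood test, 8 of the 81 members were higher with CBX1 (9.88%, against 1.32% of the 19360 genes tested) and 0 were lower (0.925%, and 2.24% in either direction). All 8 also passed the fold threshold (0.795% of all genes) by edgeR. Among them were RPS25, RPL31, RPL37 and RPL23, named by rule, and RPS23, RPL35A and RPL37A, named after their values were seen. DESeq2 called 0 of the 81 higher, with 8 at an unadjusted p below 0.05 in that direction, where edgeR had 24, and it called 1 lower, RPS2. At an unadjusted p below 0.05 edgeR had 7 members lower, and 31 in either direction (16.6% of all genes). The median log2 fold change was 0.108, against -0.004 over all genes.

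In all 8 the libraries of the groups overlapped. RPS25, a small subunit protein used in initiation at internal entry sites, had 210.1, 80.74 and 181.3 CPM in CBX1 and 89.16, 59.68 and 67.93 CPM in CBX1_W42A. CBX1 replicate 2 lay among the CBX1_W42A libraries, and the 3 Control libraries, at 59.29, 174.7 and 79.46 CPM, spread over most of the range of both. The log2 fold change was 1.12 ± 0.21 (SE, n = 3; adjusted p = 0.00633 by edgeR, 0.136 by DESeq2). RPL31, with the values above, had a log2 fold change of 1.33 ± 0.28 (SE, n = 3; adjusted p = 0.0131 by edgeR, 0.205 by DESeq2). CBX1 replicate 2, at 218.3 CPM, lay below CBX1_W42A replicate 1.

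RPL37, a zinc finger protein of the large subunit, had 717.7, 275.9 and 538.4 CPM in CBX1 and 310.2, 249.4 and 230.6 CPM in CBX1_W42A, a log2 fold change of 0.96 ± 0.20 (SE, n = 3; adjusted p = 0.0133 by edgeR). RPL35A had 257.9, 69.44 and 132.7 CPM in CBX1 and 88.52, 63.36 and 65.28 CPM in CBX1_W42A, a log2 fold change of 1.08 ± 0.26 (SE, n = 3; adjusted p = 0.0297 by edgeR). RPL23, on the face of the large subunit toward the small one, had 630.9, 236.7 and 355.8 CPM in CBX1 and 259.2, 210.8 and 201.3 CPM in CBX1_W42A, a log2 fold change of 0.87 ± 0.21 (SE, n = 3; adjusted p = 0.0284 by edgeR). In these, as in RPS25, CBX1 replicate 1 was above replicate 3, and replicate 3 above replicate 2. CBX1 replicate 1 was the highest of the 9 libraries in 8 of the 8, CBX1 replicate 2 was below CBX1_W42A replicate 1 in 8 of 8, and Control replicate 2 was above every CBX1_W42A library in 8 of 8. None of the 81 members had all CBX1 libraries above all CBX1_W42A libraries (10.1% of all genes), and 1, RPS2, had them below (11.3%), at between 1036 and 1156 CPM against between 1238 and 1509 CPM. Its log2 fold change of -0.34 ± 0.11 (SE, n = 3) had an adjusted p of 0.0928 by edgeR's quasi-likelihood test.

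Here too the count moved with single libraries. Without CBX1 replicate 1 only RPS25 was called higher, with a log2 fold change of 0.86, and the log2 fold change fell to 0.70 for RPL31, 0.63 for RPL37, 0.48 for RPL35A, 0.48 for RPS23 and 0.41 for RPL23. The number called also moved with other libraries: without CBX1 replicate 3 there were 3, without CBX1_W42A replicate 2 there were 3 and without CBX1_W42A replicate 3 there was 1. Without CBX1 replicate 2 there were 18 and without CBX1_W42A replicate 1 there were 21. For these fits too, the share of all genes called is not given here. Without CBX1_W42A replicate 2, 4 members were lower (RPL13, RPL17, RPS2 and RPS7). With all 9 libraries in 1 fit, where the Control libraries add to the estimate of the spread, RPS25 was the 1 member called. Both comparisons above use the same 3 CBX1 libraries, so RPL37A, higher in both, was not measured independently in the second.

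**Figure D5:**
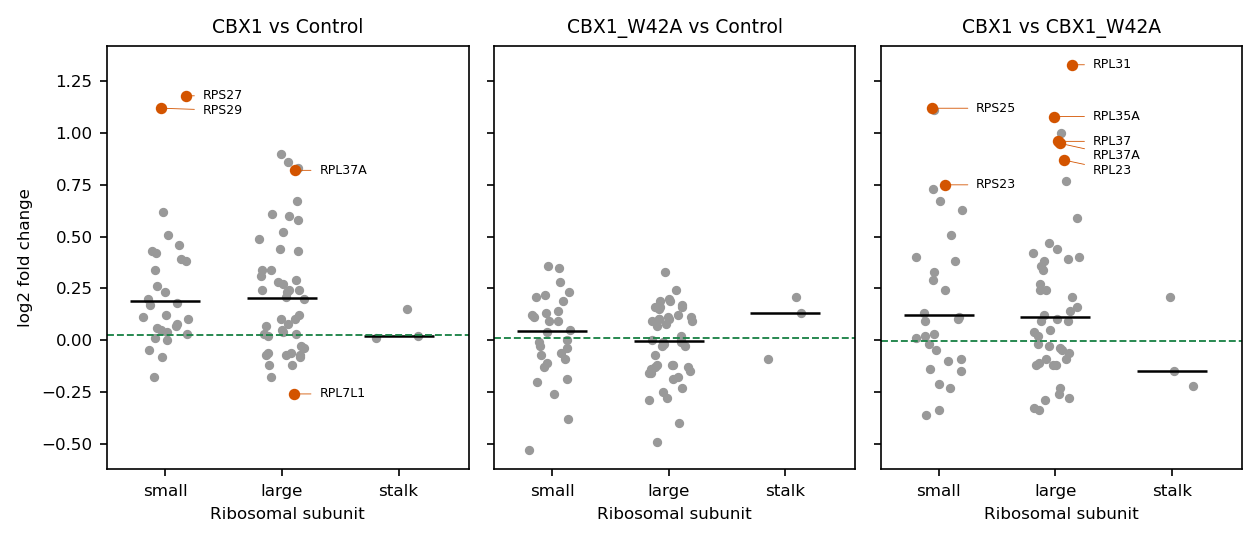
Log2 fold change of 78 of the 81 members tested, by subunit, in the 3 comparisons, with members at an adjusted p below 0.05 (edgeR) in orange and named, the median over all tested members of each subunit as a black line and the median of all genes tested as a dashed line. The members spread to both sides of 0 in each comparison, with medians of 0.183, -0.001 and 0.108 over the 81. Subunits follow the symbols, so RPL7L1 is drawn with the large subunit.

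Proteins of the stalk and others fixed by their role did not pass the test in any of the 3 comparisons. RPLP0, the base of the stalk that recruits elongation factors, had 869.2, 1453 and 1084 CPM in Control, 1285, 1068 and 1360 CPM in CBX1 and 1351, 852.8 and 1004 CPM in CBX1_W42A. Its partners RPLP1 and RPLP2 lay between 677.5 and 998.3 CPM and between 492.6 and 679.4 CPM over all libraries. RPL5 and RPL11, which with 5S ribosomal RNA bind the p53 regulator MDM2, had log2 fold changes of 0.03 ± 0.12 and 0.52 ± 0.20 in CBX1 against Control (SE, n = 3). RPL11 had 538.5, 1244 and 858.8 CPM in Control and 1318, 1036 and 1375 CPM in CBX1, so the 2 genes of 1 particle differed in their spread. RPS3, at the mRNA entry, and RPSA, the laminin receptor precursor, had log2 fold changes of 0.42 ± 0.17 and 0.26 ± 0.18, and RPS27A, fused to ubiquitin, of 0.38 ± 0.23. RPS6, the substrate of S6 kinase, RPS14 and RPS19 lay at 0.00 ± 0.14, 0.05 ± 0.12 and 0.03 ± 0.09. RPL3, RPL10, RPL13A and RPL22 lay between -0.08 and 0.21, and RPL39 and RPL41, very short proteins, at 0.28 ± 0.18 and 0.34 ± 0.16. FAU lay between 150 and 209 CPM over the 9 libraries and did not pass in any comparison.

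Among the paralogs, RPL26L1 lay between 69.86 and 142.3 CPM, while RPL39L, RPS27L and RPL22L1 lay between 3.985 and 18.04 CPM. RPL39L had 8.345, 11.43 and 7.728 CPM in Control and 7.682, 10.85 and 13.25 CPM in CBX1, with overlap. RPL3L had 1.067, 0.7918 and 2.053 CPM in Control and 1.67, 2.215 and 3.191 CPM in CBX1, a log2 fold change of 0.90 ± 0.43 (SE, n = 3; adjusted p = 0.145 by edgeR's quasi-likelihood test). RPL7L1 was the paralog that passed.

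Features that the naming rule did not use divided the calls as follows. Of 56 tested members with a tract, 3 were higher with CBX1 than in Control and 7 higher than with CBX1_W42A, and their median log2 fold changes were 0.205 and 0.139. For the 24 tested members with an annotated start and no tract at that base, 0 and 1 were higher, with medians of 0.086 and 0.045. Some of these starts, as in RPL4 and RPL10A, lie a few bases before a run of pyrimidines. These members are thus not shown to lack a tract in the cell. Over all genes tested, 10.6% and 1.32% were higher in these 2 comparisons, against 5.36% and 12.5% of the members with a tract. Among the 29 members whose span holds a small nucleolar RNA gene (60 such genes in all), 0 and 3 were higher, with medians of 0.12 and 0.093. All 3 members higher than in Control were among the 11 with a coding length of up to 300 bases, whose median log2 fold change was 0.426 against 0.1 for the 69 longer ones. Of 268 other protein-coding genes of up to 300 bases, 21 were higher (7.84%) and 9 lower (3.36%), with a median of 0.099. In CBX1 against CBX1_W42A, the 37 members with a coding GC content of up to 50% had a median of 0.242 and the 43 others of -0.021. No difference between these subsets was tested.

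Other lists of translation genes gave the following counts. Of 69 mitochondrial ribosomal protein genes tested in CBX1 against Control, 0 were higher and 9 lower (13%, against 9.46% of all genes tested), with a median log2 fold change of -0.091. MRPL49 was at 74.48 ± 2.41 CPM in CBX1 and 104.9 ± 5.3 CPM in Control (SD, n = 3), and its adjusted p was 0.00206 by edgeR. Of 26 initiation factors, 10 were lower (38.5%) and 0 higher, with a median of -0.155. EIF3C, a subunit of the factor that binds the small subunit, was at 156.3 ± 5.72 CPM in CBX1 and 262.6 ± 31.9 CPM in Control (SD, n = 3; adjusted p = 0.000151 by edgeR); it has a near-identical copy. Of 40 ribosome biogenesis genes, 12 were lower (30.0%) and 0 higher, with a median of -0.217. RRP12, a factor of subunit export, was at 173.9 ± 22.2 CPM against 300.2 ± 29.7 CPM (SD, n = 3; adjusted p = 0.000173 by edgeR). Of 9 other TOP mRNAs 1 was lower, PABPC1, the poly(A) binding protein, at 703 ± 46.9 CPM against 911.5 ± 78.2 CPM (SD, n = 3; adjusted p = 0.0143 by edgeR). Of 5 elongation factors 0 passed in any comparison, with EEF2 at 3786 ± 215 CPM in CBX1 and 4470 ± 620 CPM in Control (SD, n = 3).

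In CBX1_W42A against Control, 1 mitochondrial ribosomal protein gene, 2 initiation factors, 1 ribosome biogenesis gene and 0 other TOP mRNAs were lower, and 0 genes of these lists were higher, where 1.25% of all genes were lower and 1.37% higher. In CBX1 against CBX1_W42A, 2 of 69 mitochondrial ribosomal protein genes were higher, MRPS33 and MRPL45 (2.9%, against 1.32% of all genes tested). MRPL32 was lower (1.45%, against 0.925%). Of 26 initiation factors 1 was lower (3.85%), EIF4H, at 636.5 ± 52.1 CPM against 878 ± 60 CPM (SD, n = 3, adjusted p = 0.0214 by edgeR). These lists were read with the same libraries as the members.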

How the data were processed

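The authors deposited 1 table of whole-number counts per gene for the 9 libraries, without normalization. Per the study's methods and processing notes, reads were checked with FastQC 0.11.8, trimmed with fastp 0.23.1, aligned to hg19 (GRCh37.p13) with HISAT2 2.1.0 and counted with featureCounts 2.0.1 on GENCODE v19; its strand and feature settings are not given in the sources used here. The length column deposited with the counts equals the gene span in all 57820 rows and was not used for levels. The study tested with DESeq2 1.34.0.

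Groups came from the sample titles. Here edgeR 4.0.16 (limma 3.58.1, R 4.3.3; quasi-likelihood test, TMM factors, Benjamini-Hochberg adjustment over all genes tested) compared 2 groups at a time over 6 libraries, for genes with a summed count above 18. SE is the log2 fold change divided by the square root of F. Alternatives were DESeq2 1.42.0, other scalings, filters and samples. The study states 3 independent replicates for CBX1 Chrom-seq. The labels do not say that replicates were separate cultures, so p-values measure the spread between these libraries. Tests were checked on simulated counts with 200 genes changed by a log2 fold change of 1. In CBX1 against Control 181 were recovered with 17 false calls, and in CBX1_W42A against Control 173 with 11. In CBX1 against CBX1_W42A 177 were recovered with 5 false calls. Each gene was simulated on its own, so the check does not cover members that vary together between libraries. Summaries used Python 3.11.15, pandas 2.3.3, numpy 2.4.6 and pysam 0.24.0. Log2 deviations used a pseudocount of 0.5.

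Transcript starts and coding lengths came from the GENCODE v44 annotation mapped to GRCh37, matched for 84 of 85 members. Coding length replaced the planned exon length, since some reference transcripts run several kb past the usual end. The levels per kb of transcript were added after seeing the data. In the RefSeq promoter table, on a later build, 57 of 67 members found had the identical window.

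The members and lists were chosen with earlier results of these data known. Named were genes fixed by role, paralogs, the 5 members with the highest mean CPM, those not tested, and per comparison the 5 members with the smallest p in each direction at an adjusted p below 0.05, or else the 2 with the smallest p. From other lists, up to 3 genes by smallest p were available to name. 0 per-sample columns were left unused. The values of a few genes, 1 called member among them, are not reported here.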

Additional observations from a re-analysis of the deposited data

How the results depend on the processing

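The numbers of members called depended on the settings more than the median log2 fold changes did. In CBX1 against Control, 3 members were higher; this was 0 with DESeq2, 5 with upper-quartile factors, 5 with library size alone and 27 without a filter on low counts. With a log2 fold change of at least 0.75 required, with upper-quartile factors, library size alone, filterByExpr or all 9 libraries in 1 fit, the 1 lower member became 0. In CBX1_W42A against Control, 5 members were lower without a filter. In CBX1 against CBX1_W42A, the 8 higher members became 0 with DESeq2, 24 without a filter and 1 with all 9 libraries in 1 fit, and the 0 lower members became 1 and 3 with DESeq2 and without a filter. The cause was not tested. For the alternative fits, here and below, the share of all genes called is not given. Their counts are thus not shown to be particular to the members. Leaving out 1 library in turn, the members higher ranged from 0 to 30 in CBX1 against Control, from 0 to 1 in CBX1_W42A against Control and from 1 to 21 in CBX1 against CBX1_W42A, and those lower from 0 to 1, from 0 to 0 and from 0 to 4. The median log2 fold change of the members then ranged from 0.08 to 0.31, from -0.14 to 0.19 and from 0.02 to 0.28.

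With the replicate number as a block, 24 members were higher and 3 lower in CBX1 against CBX1_W42A and 2 higher and 0 lower in CBX1 against Control, where RPS27 lost its call (0.84, adjusted p = 0.18 by edgeR). The labels share only a number. The deviations of libraries with the same number correlated over genes with r from -0.227 to 0.047 in CBX1 and Control, from -0.12 to 0.145 in CBX1_W42A and Control and from 0.084 to 0.174 in CBX1 and CBX1_W42A, where different numbers had r from -0.201 to 0.092 and 5 of 6 libraries correlated best with their own number. Different numbers had r from -0.052 to 0.24 in CBX1 and Control and from -0.296 to 0.196 in CBX1_W42A and Control. In each of these, 2 of 6 libraries correlated best with their own number. Not every pair was above 0.1, a bound that the plan did not set. The block stayed an alternative, as planned, and was not used as a pairing.

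Alternatives chosen after seeing the data were a fit on protein-coding genes with a coding length and the removal of a lowess trend (span 0.3) with coding length or GC content. In CBX1 against Control, these left 0 members lower, and 2 were higher in the fit on these genes, 1 after the length trend was also removed and 2 after the GC trend was. Of the tests of genes named by p, 182 kept their side of the threshold, 70 did not, and 0 changed sign. The 182 include RPS28 and RPL7L1 in CBX1_W42A against Control, which kept their side by passing in 0 of 18 alternatives each. Calls of the main fit passed in between 5 of 18 alternatives (RPL7L1 in CBX1 against Control) and 17 of 18 (RPS25 in CBX1 against CBX1_W42A). A member with few counts, such as RPL3L, carries a wide error at this depth.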
